A study of Mus musculus with 32 samples.

Results

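In the mouse pro-T-like line Scid.adh.2c2, 3950 of the 17874 deposited Bcl11b peaks met a rule on annotation and overlap. They were not annotated to a promoter, lay under a Runx1 or Runx3 peak and outside every GATA3 peak of that line. They also lay outside every Bcl11b peak of the ILC2/b6 line. These sites were chosen by their measured peak overlaps: the annotation did not place them at a transcription start site (TSS), no ILC2/b6 Bcl11b peak overlapped them by 1 bp or more, and in Scid.adh.2c2 they overlapped a Runx1 or Runx3 peak and no GATA3 peak. The Runx overlap, the missing GATA3 overlap and the missing ILC2/b6 Bcl11b overlap are therefore a description and no finding. Of all the Bcl11b peaks of Scid.adh.2c2, 11468 were distal and 7849 of these had no ILC2/b6 Bcl11b peak. A missing peak means only that no interval passed the authors' calling in that list.

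Bcl11b is a zinc finger transcription factor that developing thymocytes switch on at T-lineage commitment and that group 2 innate lymphoid cells (ILC2) also need. Runx1 and Runx3 bind DNA as partners of CBF beta, work at both active and silenced lymphoid genes, and are known to form complexes with Bcl11b in early T cells. GATA3 is a further factor that T cells and ILC2 share, and Notch signalling drives the early T-cell programme of genes such as Ptcra, Dtx1 and Hes5. When Bcl11b is lost in T-cell precursors, genes of natural killer (NK) cells are known to come up.

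Scid.adh.2c2 cells, a line of lymphoma origin, grew in medium with serum and no added cytokine named in the labels, whereas ILC2/b6 cells received 10 ng/ml each of the cytokines IL-2, IL-7 and IL-33. ChIP-seq, for which the labels name no guide, gave 1 peak list per factor and line from 2 libraries. Input libraries of each line are titled FA or DSG, and the ChIP titles name neither. Whether the lists of the factors, such as GATA3 and Runx, differ in this was not examined. For RNA-seq, cells of each line were transduced with a control guide (sgControl-CFP) or a guide against Bcl11b (sgBcl11b-CFP), both carrying the fluorescent marker CFP, with 2 libraries in each of the 4 groups and recovered depths of 34.7 to 43.7 M reads. How Cas9 was supplied, the guide sequence and whether cells were sorted are not given in the sources used here, and nothing in the labels makes the replicates separate cultures, so each p-value reflects only how far these libraries scatter, which may be technical. Each line is 1 cell line and stands for itself. Of the pro-T markers, Scid.adh.2c2 control libraries held Cd3e at 173 and 174 RPKM and Tcf7 at 389 and 390 RPKM, with Dntt at 0.30 and 0.28 RPKM and Cd8a at 0 and 0.0190 RPKM, so the last pair was at or near 0. ILC2/b6 control libraries held Il5 at 2671 and 2869 RPKM. In Scid.adh.2c2, Bcl11b mRNA had 47.0 and 49.5 RPKM under the control guide against 47.1 and 46.8 RPKM under the Bcl11b guide (-0.04 log2 units, limma adjusted p = 0.455), and at -0.17 it was called with median-centred libraries (adjusted p = 0.00856). A frameshift need not lower the mRNA, so this level is no check of the labels. The summed levels of markers of other cells moved with the Bcl11b guide in Scid.adh.2c2. The sum over 6 myeloid markers was 3.41 and 2.93 RPKM with the control guide and 5.57 and 5.38 RPKM with the Bcl11b guide, and the sum over 5 mast cell markers 23.5 and 21.4 against 62.6 and 62.8 RPKM, nearly all of it Cpa3. The sum over 7 B-cell markers was 1.84 and 1.97 against 5.56 and 5.29 RPKM, mostly Cd22, while Ms4a1 and Pax5 were at 0. The sum over 4 erythroid markers was 0.409 and 0.69 against 4.04 and 4.32 RPKM, and that over 4 stromal markers was lower, 5.53 and 5.97 against 1.41 and 1.31 RPKM. The myeloid marker Cebpa and the mast cell marker Tpsb2 were at 0 in the 4 libraries, and the part of other cells in the changes below was not tested. In bulk RNA, fewer cells of a kind and less RNA per cell cannot be told apart.

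The sequences of the sites themselves were not analysed here, since the peaks are on the mm9 build. Shown instead are promoters of genes that had one of the 3950 sites nearest to them, stood on a fixed gene list, changed at least 2-fold in Scid.adh.2c2 and carried a Bcl11b promoter peak centred within 250 bases upstream of the start. Among them were Cd28, Il2ra, Il9r, Klf2, Rora and Runx3. Windows of 250 bases before a listed start come from RefSeq (GRCm38.p6, 5′ to 3′ on the gene's strand). The Runx motif TGTGGT or its reverse complement ACCACA is in capitals.
Runx3: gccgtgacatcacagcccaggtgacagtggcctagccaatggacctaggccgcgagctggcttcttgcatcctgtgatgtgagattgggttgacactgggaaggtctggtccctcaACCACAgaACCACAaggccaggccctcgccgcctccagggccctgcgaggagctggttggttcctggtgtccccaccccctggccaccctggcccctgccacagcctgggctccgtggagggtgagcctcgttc
Il9r: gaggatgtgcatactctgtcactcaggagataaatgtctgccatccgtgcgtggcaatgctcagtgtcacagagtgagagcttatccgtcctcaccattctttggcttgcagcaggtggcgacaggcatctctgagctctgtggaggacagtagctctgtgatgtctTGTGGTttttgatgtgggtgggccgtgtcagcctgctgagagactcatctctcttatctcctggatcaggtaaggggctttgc
Il2ra: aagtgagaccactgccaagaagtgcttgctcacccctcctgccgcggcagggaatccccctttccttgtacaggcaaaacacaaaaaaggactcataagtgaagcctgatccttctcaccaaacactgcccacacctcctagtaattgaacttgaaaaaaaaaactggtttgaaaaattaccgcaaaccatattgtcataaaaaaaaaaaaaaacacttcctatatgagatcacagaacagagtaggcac
Rora: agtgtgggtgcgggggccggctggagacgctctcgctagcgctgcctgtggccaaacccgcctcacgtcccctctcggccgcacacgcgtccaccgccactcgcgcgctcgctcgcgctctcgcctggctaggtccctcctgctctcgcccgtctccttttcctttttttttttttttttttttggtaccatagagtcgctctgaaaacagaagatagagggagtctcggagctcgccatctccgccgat
The Runx3 window (GRCm38 chr4:135120395-135120644, plus strand) is the more upstream of 2 listed for the gene and holds 2 matches, the Il9r window (chr11:32200280-32200529, minus strand) holds 1, and the Il2ra window (chr2:11642542-11642791, plus strand) and the Rora window (chr9:68653536-68653785, plus strand) hold 0. Windows were not matched to the start with the peak, and for Rora these may differ. A Rora site 197435 bp upstream of the start nearest to the peak lay in intron 1 of a longer transcript. That transcript starts farther upstream, and only 1 window was listed for the gene. On mm9 the promoter peak of Runx3 (chr4:134676310-134676546) was centred 132 bp upstream of the start with a Bcl11b score of 172.6, and it overlapped Runx1 and Runx3 peaks with scores of 225.2 and 392.4. The Bcl11b promoter peaks of Il9r, Il2ra and Rora had scores of 51.2, 33.3 and 50.4, and among the 4 genes shown only Rora had no ILC2/b6 Bcl11b peak there. On either strand, 14% of all 32851 promoter windows of this length held the motif. Among genes near the sites it was in the window of 28 of 139 genes that rose 2-fold or more (20.1%), of 9 of 67 that fell 2-fold or more (13.4%), and of 269 of all 1941 with a window (13.9%). By gene, taking any of its windows, the share over all 27025 genes was 15.9%. A match is a description of these letters and not a bound site.

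Most of the sites carried both Runx factors. Runx3 peaks overlapped 3837 of 3950 sites (97.1%, exact binomial 95% interval 96.6 to 97.6%) and Runx1 peaks 2993 (75.8%, 74.4 to 77.1%). Both were present at 2880 sites (72.9%), Runx3 alone at 957 and Runx1 alone at 113. Of the 1632 pro-T-only distal Runx sites with GATA3, 1315 also had both, so this trait is not particular to the sites. Intervals on shares of sites cover counting error only, and neighbouring sites are not independent. The Runx1 list is the shorter, with 13664 peaks against 20523 for Runx3. The peaks sat close together: the median distance between the Bcl11b and the Runx3 peak centres was 29 bp and between the Bcl11b and the Runx1 centres 26 bp.

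The stronger the Bcl11b peak, the more often both Runx factors were called. Scores are the authors' and rank peaks within a list. The Bcl11b scores of the sites ran from 15.1 to 3040.2 with a median of 26.7, and 47.6% of the whole Bcl11b list lay at or below that median. For Runx3 the median of the sites was 36.6, at or above 62.5% of the Runx3 list. From the lowest to the highest quartile of Bcl11b score, both Runx peaks were present at 56.3%, 64.9%, 78.8% and 91.6% of sites. Across sites the Spearman correlation was 0.44 between Bcl11b and Runx3 scores (n = 3837), 0.47 between Bcl11b and Runx1 scores (n = 2993) and 0.87 between Runx1 and Runx3 scores (n = 2880). These are descriptions across sites, and the peaks compared come from the same line at the same sites. Sites with Runx3 alone had a lower median Bcl11b score, 20.9, than sites with both, 29.9.

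**Figure D1:**
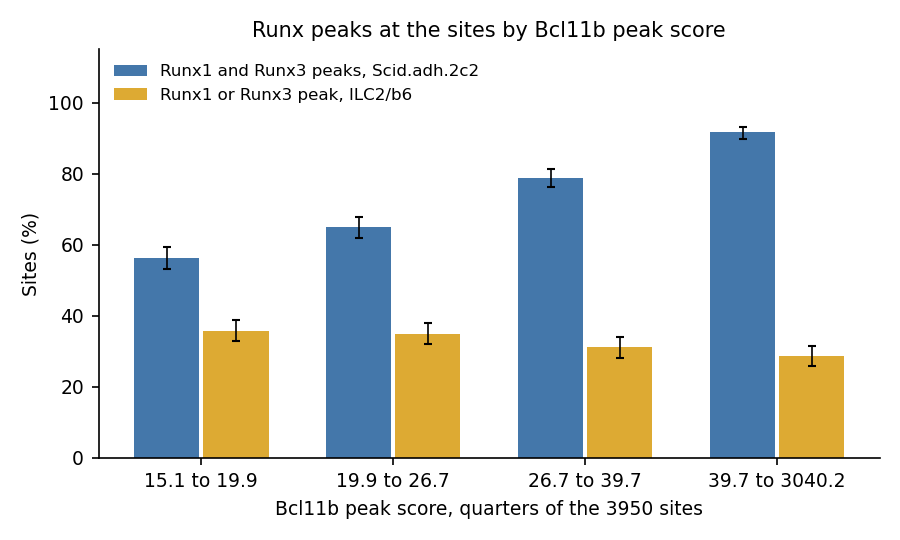
Share of the 3950 sites (%) with both Runx1 and Runx3 peaks in Scid.adh.2c2 (blue) and with a Runx1 or Runx3 peak in ILC2/b6 (yellow), by quartile of Bcl11b peak score; error bars are exact binomial 95% intervals. The blue bars climb from 56.3% to 91.6%, and the yellow bars go from 35.8% to 28.5%.

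Some of the sites, 32.6%, still carried Runx in the ILC2 line, where Bcl11b had no peak. An ILC2/b6 Runx3 peak overlapped 1250 sites (31.6%, 30.2 to 33.1%), a Runx1 peak 425 (10.8%, 9.81 to 11.8%) and either one 1288. The ILC2/b6 Runx3 list is long, with 44938 peaks. Where a Runx3 peak was present in ILC2/b6, its median score was 41.6, against 102.4 at the 3619 distal Bcl11b sites that the lines shared. An ILC2/b6 GATA3 peak overlapped 31 sites (0.785%, 0.534 to 1.11%). The share with an ILC2/b6 Runx peak went from 35.8% in the lowest quartile of Bcl11b score to 28.5% in the highest.

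Other distal Bcl11b sites of Scid.adh.2c2 differed in these shares. An ILC2/b6 Runx3 peak lay at 25.5% of the 2068 pro-T-only distal sites with GATA3, at 11.5% of the 1831 with no partner peak, and at 87.5% of the sites shared by the lines. An ILC2/b6 GATA3 peak lay at 30.3% of the pro-T-only sites with GATA3, at 0.601% of those with no partner and at 35.0% of the shared sites. The rule used no ILC2/b6 partner peak, but it did use GATA3 in Scid.adh.2c2.

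**Figure D2:**
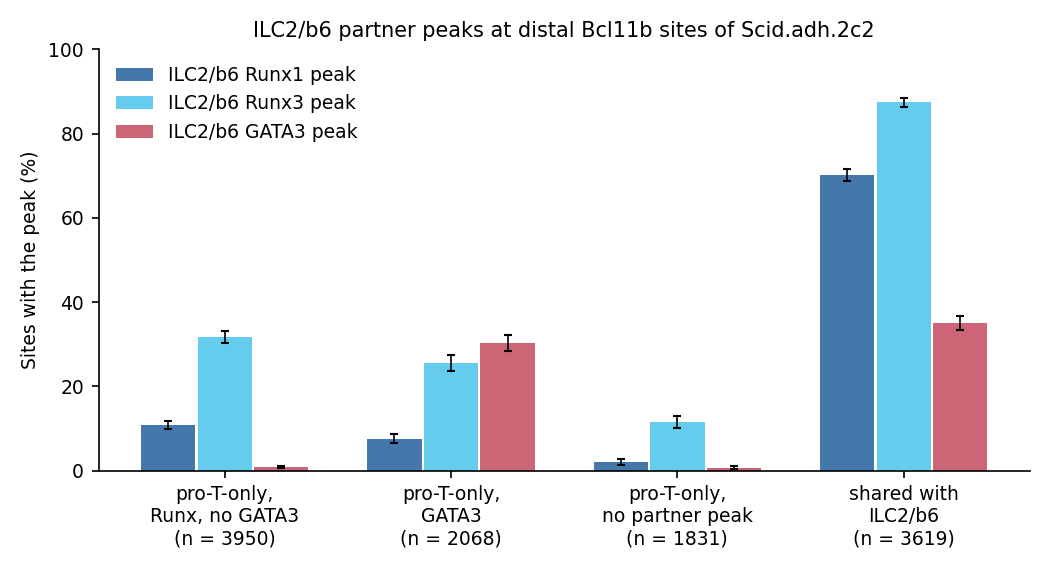
Share of sites (%) that overlap an ILC2/b6 Runx1, Runx3 or GATA3 peak, for 4 classes of distal Scid.adh.2c2 Bcl11b site; error bars are exact binomial 95% intervals. The sites with Runx and without GATA3 (left) stand at 10.8%, 31.6% and 0.785%, and the shared sites (right) at 70.2%, 87.5% and 35.0%.

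Some sites lay close to the edges of the rule. Of the sites, 61 had a GATA3 peak 1 to 50 bp away that did not touch them, and 61 other pro-T-only distal Runx sites were left out for a GATA3 overlap of 1 to 50 bp. A GATA3 peak lay within 10 kb of 2241 sites (56.7%), and an ILC2/b6 Bcl11b peak within 1 kb of 353 (8.94%). Peaks had 1 width per list, 237 bp for Scid.adh.2c2 Bcl11b.

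By the authors' annotation 1872 sites were intergenic (47.4%) and 1750 intronic (44.3%), with 117 in exons, 72 in 5′ UTRs and 34 in 3′ UTRs. The median distance to the nearest TSS was 19602 bp, with 20.4% of sites within 5000 bp and 25.7% beyond 50000 bp. Pro-T-only sites with GATA3 lay farther out, at a median of 28657 bp, and the shared sites nearer, at 8973 bp. CpG islands held 157 of the sites (3.97%), against 12.7% of the shared sites and 0.822% of the GATA3-bearing ones. Long terminal repeats, which are remnants of retroviruses, held 283 sites (7.16%), of which 159 were of the MaLR family. The share was 8.61% for the GATA3-bearing and 5.25% for the shared sites.

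Some sites lay close to one another. Another of the sites lay within 12.5 kb of 984 (24.9%), and 71 runs of 3 or more with gaps of at most 12.5 kb held 238 sites. The longest run held 6 sites over chr10:42558364-42589494 at Scml4, a Polycomb-related gene expressed in lymphocytes. Runs of 5 lay at Cpn2 (chr16:30173031-30185258) and Klf13 (chr7:71118417-71144450), and runs of 4 at Socs3 (chr11:117813590-117836361), Ly6e (chr15:74786006-74798972) and the integrin gene Itga9 (chr9:118555530-118571471), among others. Duplicated sequence touches at least a few: 10 sites of 4 genes stood at the same TSS distance, within 5 bp, as another site over 10 kb away. Of these, 4 were at Dynlt1f, which has near-identical copies. The 5 bp limit misses others: Dynlt1f sites at chr17:6770316-6770552 and chr17:6564142-6564378 had the same Bcl11b, Runx1 and Runx3 scores (102.8, 109.8 and 152.5) at TSS distances of 35954 and 36536 bp.

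The highest Bcl11b score of any site, 3040.2, was at chr15:74917126-74917362, an intergenic site 25123 bp from the start of Ly6c2, which codes for a surface antigen of activated and memory lymphocytes. It had a Runx3 peak with a score of 3713.9, the highest in that list, and no Runx1 peak. Its Bcl11b score was also the highest of the whole Bcl11b list, far above that of any other site. The cause of so high a score was not tested. The second, with 323.4, lay 8146 bp upstream of Elfn2 (chr15:78557229-78557465), and the fifth, with 197.7, lay 35555 bp upstream of Tcf7, the gene of the T-cell factor TCF-1 (chr11:52131953-52132189). That Tcf7 site had Runx1 and Runx3 scores of 189.5 and 336.9 and also an ILC2/b6 Runx3 peak, with a score of 32.9. The remaining 7 of the 10 highest were nearest to 2310008N11Rik, Eapp, Myo5c, Vmn2r123, Gm16835, Pdzk1 and Nrgn, with scores from 169.6 to 209.9. Of the 10 sites, 8 had a Runx1 peak and all 10 a Runx3 peak.

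Each site was given its nearest gene by the authors' annotation, and a nearest gene need not be the gene a site acts on. The 3950 sites had 2653 nearest genes. Of these 2592 were in the RNA tables, and 1574 reached 1 RPKM in at least 2 of the 4 Scid.adh.2c2 libraries and were tested there. With the Bcl11b guide, 653 rose and 424 fell at an adjusted p under 0.05 (limma), which is 68.4% of those tested, against a background of 57.8% of all 10221 genes tested. The share that rose was 41.5% (background 35.1%) and the share that fell 26.9% (background 22.7%). The median level of the genes tested was 0.13 log2 units higher in the Bcl11b guide libraries than in the control libraries, while the median change of a gene was 0.05, and the split moved with the scaling: with median-centred libraries 504 of these genes rose and 594 fell, and with quantile normalization 502 and 614. Small changes in either direction are therefore read relative to that difference in medians.

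Of the largest falls, 51.7% were of genes near these sites. Genes of other pro-T-only sites fell, and also rose, 2-fold or more at similar shares, as given below. A fall of 2-fold or more was called for 89 of the 1574 genes (5.65%), against 1.68% of all genes tested, and these 89 are part of 172 in all, while genes near the sites were 15.4% of the genes tested. A rise of 2-fold or more was called for 184 genes (11.7%), against 6.75% of all genes, or 26.7% of the 690. With median-centred libraries the 2-fold changes were 153 rises and 106 falls, and with quantile normalization 137 and 120. Under the alternatives in scaling, pseudocount, filter, block and libraries, the genes near sites made up between 44.9% and 53.7% of all 2-fold falls. Of the 184 rises, 51 were genes that passed the filter through the Bcl11b guide libraries alone, and of the 89 falls, 24 passed through the control libraries alone. In all, 67 and 47 genes near sites passed in these ways. For such genes not both libraries of the other group reached 1 RPKM, so the filter favoured a difference. Among genes at 1 RPKM or more in all 4 libraries, 65 of 1459 near sites fell 2-fold or more (4.46%), against 1.31% of all such genes, and 133 rose (9.12%), against 4.47%.

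The share that fell differed with the number and strength of the sites. Genes with 1, 2 and 3 or more sites fell 2-fold or more in 3.90%, 10.3% and 8.75% of cases, and rose so far in 11.9%, 12.5% and 8.75%. By the quartile of the gene's highest Bcl11b score, falls were 2.86%, 2.66%, 4.16% and 11.2%, while rises were 14.3%, 11.4%, 10.8% and 11%. Of the 231 genes with 2 or more sites and a score in the top quartile, 36 fell 2-fold or more (15.6%). Falls were most frequent among genes of low level: in the lowest, middle and highest tertile of mean RPKM, falls near sites were 8.39%, 4.66% and 3.43%, against 2.76%, 1.23% and 1.06% of all genes in the same tertiles. By distance of the closest site, falls were 6.72% within 10 kb of the start, 5.03% from 10 to 50 kb and 3.09% beyond. These shares are counts of genes, which are not replicates, and no test was made of them.

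**Figure D3:**
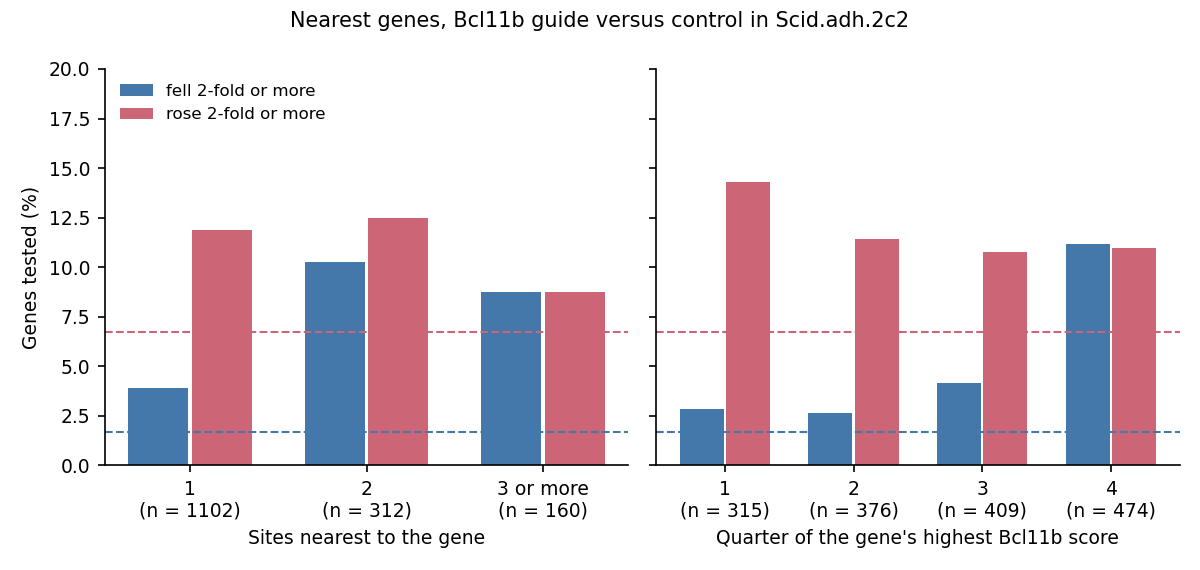
Share of tested nearest genes (%) that fell (blue) or rose (red) 2-fold or more with the Bcl11b guide in Scid.adh.2c2, by number of sites (left) and by quartile of the gene's highest Bcl11b peak score (right); dashed lines are the shares of all genes tested, 1.68% and 6.75%. The blue bars reach 10.3% at 2 sites and 11.2% in the top quartile.

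Many of these genes had other Bcl11b peaks too: 25.9% were also nearest to a pro-T-only GATA3-bearing site, 30.5% to a shared distal site and 35.4% to a Bcl11b promoter peak, and 812 (30.6%) to no Scid.adh.2c2 Bcl11b peak outside the 3950. For genes of the pro-T-only sites with GATA3 and of none of the 3950, falls of 2-fold or more were 5.61%. Over all genes of the pro-T-only sites with GATA3 falls were 6.68%, and over all genes of pro-T-only sites with no partner 4.99%. Falls at such shares were thus not particular to the 3950 sites. Rises of 2-fold or more in these groups were, in the same order, 10.8%, 11.4% and 9.07%, so rises were not particular to the sites either. Among genes nearest to no Scid.adh.2c2 Bcl11b peak, 8.23% rose and 1.11% fell 2-fold or more. For genes of shared distal sites and of none of the 3950 falls were 0.971%, with 8.81% rising. Genes whose distal Scid.adh.2c2 Bcl11b sites were all among the 3950 fell in 4.94% and rose in 9.73%. The difference between these classes was not tested.

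The Notch response list held 12 genes, of which 6 had a site and 5 of these were tested. All 5 fell, against 22.7% of all genes tested, with a median log2 change of -1.86 over the 5, against 0.05 over all genes tested. Of the 4 tested list genes without a site, 3 also fell. Notch3, a Notch receptor and itself a Notch target, had 13.8 and 17.7 RPKM with the control guide and 3.33 and 3.28 RPKM with the Bcl11b guide (-2.09 ± 0.11, SE, adjusted p = 5.68e-06). Hes5, a repressor directly induced by Notch, had 14.2 and 15.7 RPKM against 3.75 and 3.67 RPKM (-1.87 ± 0.07, adjusted p = 1.08e-06). In both genes the groups did not overlap. The Hes5 site, chr4:154332378-154332614, lay 2536 bp upstream of the start with a Bcl11b score of 88.4. Dtx1, a ubiquitin ligase that regulates Notch, went from 106 and 120 to 33.1 and 32.4 RPKM (-1.77 ± 0.06, adjusted p = 5.15e-07), and its 2 sites both lay in intron 3 of 9. Il2ra, which encodes CD25 of the IL-2 receptor, went from 150 and 168 to 44.3 and 42.8 RPKM (-1.86 ± 0.06, adjusted p = 3.71e-07). Hes1 fell least, from 38.0 and 36.1 to 19.9 and 20.1 RPKM (-0.87 ± 0.04, adjusted p = 4.51e-06). Hey1 had 5 sites and stayed at or below 0.123 RPKM in the Scid.adh.2c2 libraries.

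Of 30 T-lineage identity genes, 13 had a site and 10 were tested. With the Bcl11b guide 7 rose and 2 fell, with a median log2 change of 0.76. Of the 11 tested list genes without a site 4 rose and 4 fell, with a median of -0.20. Over all genes tested, 35.1% rose and 22.7% fell. The lists are small, and the difference between genes with and without a site was not tested. Ptcra, whose product pairs with the T-cell receptor beta chain, fell from 31.6 and 31.1 to 7.96 and 7.88 RPKM (-1.92 ± 0.05, adjusted p = 1.71e-07), with its single site 4310 bp upstream (chr17:46904853-46905089, score 57.5). Thy1 fell from 99.1 and 102 to 68.1 and 67.6 RPKM (-0.57 ± 0.04, adjusted p = 1.75e-05). Cd28, a costimulatory receptor with 3 sites, rose from 11.3 and 10.9 to 28.7 and 27.4 RPKM (1.30 ± 0.05, adjusted p = 1.21e-06), and Cd2, an adhesion receptor, from 13.5 and 14.5 to 35.3 and 35.9 RPKM (1.32 ± 0.05, adjusted p = 1e-06). Themis, Zap70, Ptprc, Lcp2 and Cd247 rose by 0.93, 0.84, 0.81, 0.71 and 0.16 log2 units, and with median-centred libraries Cd247 was at 0.025 and not called (adjusted p = 0.638). Grap2, an adaptor, was not called as deposited (-0.14, adjusted p = 0.0852) but was with median-centred libraries (-0.27, adjusted p = 0.00345), and Cd27, Prkcq and Rag2 did not reach the filter.

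Among 34 transcription factors of T and lymphoid cells, 22 had a site, 21 of these were tested, and 12 rose and 6 fell. Of the 9 tested list genes without a site, 5 rose and 1 fell. Over all genes tested, 35.1% rose and 22.7% fell. Lef1, a partner of TCF-1 in the same family, fell from 34.9 and 41.1 to 8.27 and 8.20 RPKM (-2.13 ± 0.08, adjusted p = 8.07e-07). It had 5 sites, 4 of them between 95789 and 173086 bp upstream, and the one at chr3:130717308-130717544 carried a Runx3 score of 369.4. Myb, which early thymocytes need, fell from 76.0 and 82.0 to 26.6 and 25.6 RPKM (-1.58 ± 0.05, adjusted p = 3.75e-07). Tcf7 fell from 389 and 390 to 216 and 218 RPKM (-0.84 ± 0.04, adjusted p = 2.74e-06), a smaller change at a far higher level. Cbfa2t3, a corepressor that passed the filter through the control libraries alone, fell by 1.32, Sox4 by 0.77 and Tcf12 by 0.50 log2 units. Runx3 rose from 3.07 and 3.28 to 18.0 and 18.2 RPKM (2.34 ± 0.07, adjusted p = 2.58e-07), with 3 sites besides the promoter peak described above. Zbtb7b, which directs CD4 lineage choice, rose by 1.40, Ikzf3 by 1.26 and Tox by 1.13 log2 units. Gata3 rose by 0.22 (adjusted p = 0.00506), but with median-centred libraries it was at 0.085 and not called (adjusted p = 0.142). Runx1 was not called as deposited (-0.05, adjusted p = 0.487) and was called at -0.18 with median-centred libraries (adjusted p = 0.0132). Bcl11b itself had 4 sites, and the 2 strongest lay 77049 and 75186 bp downstream of the start (chr12:109164457-109164693, score 114.9, and chr12:109166320-109166556, score 71.7).

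Few of the NK and innate effector genes had a site: 6 of 33, with 4 tested, and all 4 rose, against 35.1% of all genes tested. Il2rb, the beta chain shared by the IL-2 and IL-15 receptors, rose from 1.83 and 1.53 to 126 and 126 RPKM (5.86 ± 0.07, adjusted p = 1.76e-08). Its site, chr15:78342446-78342682, lay 17068 bp upstream with a low score of 23.5 and a Runx3 but no Runx1 peak. Cd226, an activating receptor, rose from 2.02 and 2.03 to 41.5 and 42.1 RPKM (4.07 ± 0.06, adjusted p = 2.33e-08). Tbx21, the gene of T-bet, rose from 3.86 and 3.82 to 55.0 and 56.9 RPKM (3.7 ± 0.05, adjusted p = 2.33e-08), and Ifng from 0.437 and 0.335 to 5.47 and 4.68 RPKM (2.65 ± 0.11, adjusted p = 1.83e-06). Ifng passed the filter through the Bcl11b guide libraries alone. Of the list genes without such a site, 13 of 16 tested also rose, with a median log2 change of 2.99 against 3.88 for the 4 with a site.

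The remaining lists were mixed, and over all genes tested 35.1% rose and 22.7% fell. Of 11 cytokine receptor and signal regulator genes with a site, 10 were tested, 4 rose and 5 fell, and of the 11 tested without a site 8 rose and 2 fell. Socs3, an inhibitor of cytokine signalling with 4 sites, fell from 12.4 and 13.7 to 3.43 and 3.94 RPKM (-1.69 ± 0.09, adjusted p = 4.56e-06), and Il7r fell by 0.92. Of 8 trafficking genes with a site, 6 were tested, 2 rose and 2 fell, with a median log2 change of -0.10, whereas all 8 tested without a site rose, with a median of 2.07. Klf2, which governs lymphocyte egress and had 4 sites, rose from 0.884 and 0.461 to 5.46 and 4.84 RPKM (2.29 ± 0.17, adjusted p = 3.25e-05), through the guide libraries alone, and Cxcr4, with 6 sites, fell by 0.42. Of 5 ILC2 genes with a site, 4 were tested, and of the 8 tested without a site 5 rose and 3 fell. Rora, Lif and Crlf2 rose by 1.56, 2.28 and 0.91, Lif through the guide libraries alone, and Il9r fell by 1.25 log2 units. Of 6 progenitor genes with a site, 2 were tested: Flt3 fell from 1.45 and 1.42 to 0.405 and 0.465 RPKM (-1.05 ± 0.10, adjusted p = 0.000138), through the control libraries alone, and Spi1, the gene of the myeloid factor PU.1, had 0 and 0.0200 RPKM with the control guide, at or under what 3 reads give, and 3.31 and 2.71 RPKM with the Bcl11b guide. Kit, Lyl1, Lmo2 and Bcl11a stayed at or below 0.174 RPKM.

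**Figure D4:**
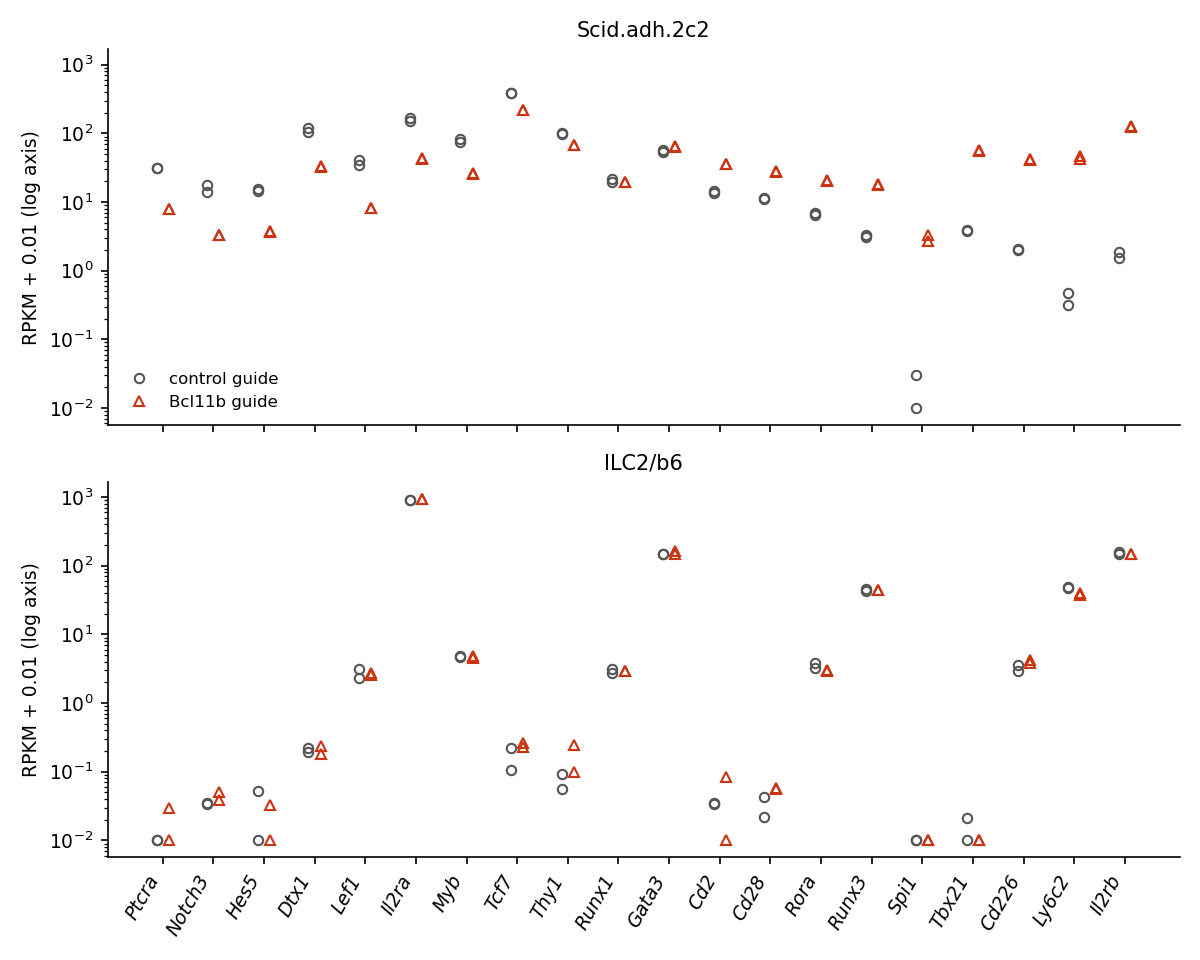
Level of 20 genes nearest to the sites in each RNA library (RPKM + 0.01, log axis), in Scid.adh.2c2 (top) and ILC2/b6 (bottom), with the control guide (circles) and the Bcl11b guide (triangles). In Scid.adh.2c2 Ptcra to Thy1 lie lower with the Bcl11b guide and Cd2 to Il2rb higher, and in ILC2/b6 the marks nearly coincide for Il2ra, Runx3 and Il2rb; the RPKM tables of the lines were normalised separately.

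The 10 largest rises near sites were Il2rb, Ly6c2, Gpr34, Cd226, Mpeg1, Ms4a4b, Tbx21, Gsn, Mir6381 and Sspn, between 3.52 and 5.86 log2 units. Of these, Ly6c2, Gpr34, Mpeg1 and Sspn passed the filter through the Bcl11b guide libraries alone, so the filter favoured a difference in them. Ly6c2 went from 0.308 and 0.458 to 46.5 and 42.6 RPKM (5.68 ± 0.10, adjusted p = 4.11e-08), but it belongs to the Ly6 family of close paralogs, so how reads divide among them is uncertain. The 10 largest falls were Fbp1, Stc1, Rhox7a, Mgarp, Tnfrsf8, Akap12, Arhgef10l, Aldh1b1, Arpp21 and Endou, between -2.16 and -2.74, with Stc1, Mgarp and Akap12 passing through the control libraries alone. Fbp1, a gluconeogenic enzyme, fell from 33.6 and 37.1 to 4.6 and 5.11 RPKM (-2.74 ± 0.07, adjusted p = 2.08e-07) with a site in exon 1. Arpp21, an RNA-binding protein gene active in early thymocytes, fell from 10.4 and 11.4 to 2.06 and 2.02 RPKM (-2.16 ± 0.08, adjusted p = 8.51e-07). The control libraries of Mgarp stood apart at 5.87 and 2.33 RPKM, and its change of -2.24 ranged from -2.82 to -1.65 when 1 library was left out. Rhox7a belongs to a multigene family, so its reads may be split, and Mir6381 is a short RNA gene whose reads may come from an overlapping transcript.

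Genes with the most sites did not change most. Dynlt1f had 13 sites and a change of -0.18, Gse1 12 and 0.20, Klf13 8 and 0.37 log2 units, all called (adjusted p = 0.0166, 0.022 and 0.000171), and the Dynlt1f sites and reads may be split over its copies. Dynlt1f was at 0.012 and not called with quantile normalization (adjusted p = 0.832), and Gse1 was at 0.068 and not called with median-centred libraries (adjusted p = 0.267). Itga9, with 8 sites, fell from 2.30 and 2.56 to 0.889 and 0.923 RPKM (-1.06 ± 0.10, adjusted p = 0.000104), and passed through the control libraries alone. The other 6 of the 10 genes with the most sites (4930465M20Rik, Mir6368, 4933406K04Rik, C130026L21Rik, 1700092K14Rik and 4932435O22Rik) did not reach the filter. Elfn2, nearest to the second strongest site, fell from 7.0 and 8.57 to 2.15 and 2.23 RPKM (-1.62 ± 0.11, adjusted p = 1.63e-05), and Scml4, with the longest run, fell from 4.79 and 4.96 to 2.53 and 2.72 RPKM (-0.78 ± 0.08, adjusted p = 0.000186). Elfn2 and Scml4 were picked after their values were seen.

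In ILC2/b6, Bcl11b had no peak at these sites. Of the 2653 nearest genes, 1178 (44.4%) were nonetheless also nearest to an ILC2-only distal Bcl11b site, so many were not free of Bcl11b there. In that line 1393 of the nearest genes were tested, and 130 rose and 98 fell with the Bcl11b guide. With median-centred libraries the split was 93 rising and 129 falling. The main counts are 16.4% called against a background of 14.5% of 10526 genes, with 9.33% rising (background 8.32%) and 7.04% falling (background 6.21%), so the shares were near the background. The sum over the 5 mast cell markers was 20.3 and 20.4 RPKM with the control guide and 95.2 and 96.7 RPKM with the Bcl11b guide, and its part in these changes was not tested. A change of 2-fold or more was a rise in 5 genes (0.359%, background 0.485%) and a fall in 0 (background 0.114%) by limma, with 5 rises and 0 falls of this size also at an unadjusted p under 0.05. Leaving out the first control library or the first Bcl11b guide library gave 2 and 1 such falls. The 5 were Tmem119, Fabp4, Zfp36l2, Naglu and Plxnd1, of which Tmem119 and Fabp4 passed the filter through the guide libraries alone, and Fabp4 was not called without the filter (adjusted p = 0.0664). Zfp36l2, an RNA-decay factor, rose from 61.5 and 59.2 to 137 and 129 RPKM (1.14 ± 0.04, adjusted p = 2.03e-05) and Tmem119 from 0.129 and 0.165 to 4.29 and 4.56 RPKM (2.93 ± 0.10, adjusted p = 1.42e-05). The largest falls were Tubb3, Fos, Egr1, Sla and Ubl7, between -0.72 and -0.82 log2 units. Without the filter on low values Tubb3 and Fos were not called (adjusted p = 0.0852 and 0.124). Egr1 and Fos are immediate early genes. By list, of the genes with a site that were tested in ILC2/b6, 0 rose and 2 fell among 6 T-lineage genes, 4 rose and 2 fell among 18 transcription factors, 1 of 2 Notch response genes rose (Hes1, at 0.29), and 0 of 2 NK genes and 0 of 1 progenitor gene were called. Among 5 ILC2 genes 1 rose and 1 fell, among 11 cytokine genes 2 rose and 2 fell, and among 5 trafficking genes 1 rose. Il5, a defining ILC2 cytokine with 2 sites, fell from 2671 and 2869 to 1881 and 1874 RPKM (-0.56 ± 0.05, adjusted p = 0.000518), and was not called in a joint fit of all 8 libraries (adjusted p = 0.0591).

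The change differed between the lines for 54.4% of the genes. The interaction contrast, ILC2/b6 change minus Scid.adh.2c2 change, was called for 693 of 1273 genes tested in both lines, against a background of 45.8% of 9147 genes, with 244 higher (19.2%, background 17.8%) and 449 lower (35.3%, background 28.0%) in ILC2/b6. With median-centred libraries the split was 394 and 365. The largest differences with a lower ILC2/b6 change were Ly6c2, Il2rb, Gsn, Cd226 and Gbp10, between -3.42 and -5.97, and with a higher one Fabp4, Tnfrsf8, Lef1, Il2ra and Gpr25, between 1.81 and 3.0, with Gpr25 and Fabp4 passing the ILC2/b6 filter through the guide libraries alone. In ILC2/b6, Il2rb stood at 156 and 149 RPKM under the control guide against 149 and 150 RPKM under the Bcl11b guide (difference between lines -5.89 ± 0.08, adjusted p = 1.26e-10). Lef1 stood there at 3.12 and 2.35 against 2.73 and 2.53 RPKM (2.10 ± 0.16, adjusted p = 3.24e-06). Of the genes tested in both lines, 45 rose in Scid.adh.2c2 and fell in ILC2/b6 (3.53%, against 2.21% of all 9147 genes) and 17 did the reverse (1.34%, against 0.951%). A rise in both was called for 68 (5.34%, against 4.00%) and a fall in both for 24 (1.89%, against 1.43%), and no test was made of these shares. Egr1 went from 0.328 and 0.329 to 3.96 and 3.90 RPKM in Scid.adh.2c2, where it passed the filter through the guide libraries alone, and from 27.6 and 30.4 to 16.8 and 16.5 RPKM in ILC2/b6 (difference -3.20 ± 0.09, adjusted p = 4.26e-09). Sla, an adaptor that dampens T-cell receptor signals, rose by 2.01 in Scid.adh.2c2 and fell by 0.75 in ILC2/b6 (difference -2.76 ± 0.08, adjusted p = 4.67e-09).

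**Figure D5:**
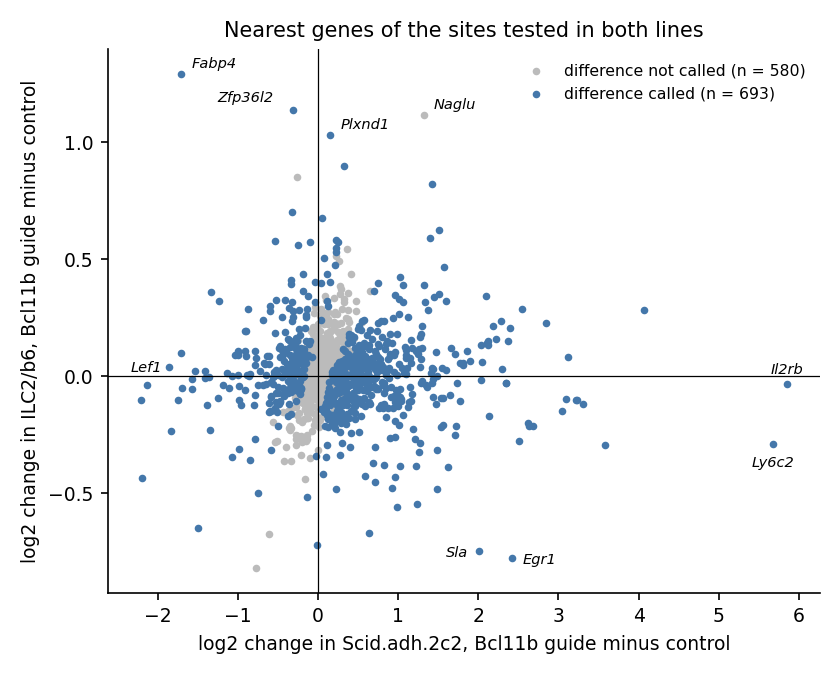
Log2 change with the Bcl11b guide in Scid.adh.2c2 (horizontal axis) and in ILC2/b6 (vertical axis) for 1273 nearest genes tested in both lines, blue where the difference between lines was called (693) and grey where it was not (580). The points spread widely along the horizontal axis, up to Il2rb at 5.86, and less along the vertical one.

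The genes were also split by whether any of their sites carried Runx in ILC2/b6, and the difference was not tested. Among genes with at least 1 site under an ILC2/b6 Runx peak, 4.46% fell and 12.7% rose 2-fold or more in Scid.adh.2c2. Among genes with none, 6.66% fell and 10.9% rose. In ILC2/b6 itself 16.7% of the former and 16.0% of the latter were called.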

How the data were processed

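ChIP-seq peaks and RNA levels came from 32 samples, 2 per group. Peak lists were called on 2 replicate libraries together and filtered for reproducibility, per the file headers, so peaks could not be compared between replicates; their score is the authors' deposited peak score, and coordinates are mm9. RNA levels are RPKM per gene as deposited by the authors, in 1 table per line, each normalised separately. The submitters' processing notes name Bowtie 1.1.1, HOMER, Trimmomatic, STAR 2.4.0, RSEM 1.2.25 and edgeR 3.6.8, and as builds NCBIM37 and mm9, without roles. Low RPKM values were whole multiples of 1 read (100% within 0.1 read), which gave depths of 34.7 to 43.7 M reads; 3 reads on a 2 kb transcript equal 0.0343 to 0.0432 RPKM. The kit does not mark strand, so overlapping antisense genes cannot be told apart.

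Overlaps of 1 bp or more were counted in Python 3.11.15. Genes at 1 RPKM or more in at least 2 of a line's 4 libraries were tested as log2(RPKM + 0.5) with limma 3.58.1 (R 4.3.3, mean-variance trend), Benjamini-Hochberg adjusted over all genes tested, called at an adjusted p under 0.05. All fold changes are on this scale and so understate low genes. Errors are SE, n = 2 libraries per group. The code was tested on simulated data. Shares of sites carry exact binomial 95% intervals.

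The sites and gene lists were chosen with earlier results of these data known. Named were the 10 strongest sites, the 10 genes with most sites, the 10 largest rises and falls in Scid.adh.2c2 (5 and 5 in ILC2/b6 and between lines) whose groups did not overlap, and genes of 8 lists with a site. The 8 input libraries and site sequences were not used here. No column of another series was present. Alternatives covered overlap, score, distance, pseudocount, filter, scaling, joint and blocked fits, and leaving out libraries. Same-numbered libraries were not known to be paired. Some genes are not reported here.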

Additional observations from a re-analysis of the deposited data

Results flagged for a closer look

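For 12 genes named above, the change with the Bcl11b guide differed between the lines by the interaction test (limma, adjusted p under 0.05; log2, ILC2/b6 change minus Scid.adh.2c2 change). The difference was below 0 for Ly6c2 (-5.97), Il2rb (-5.89), Gsn (-3.88), Cd226 (-3.78), Gbp10 (-3.42), Egr1 (-3.20) and Sla (-2.76). It was above 0 for Fabp4 (3.0), Tnfrsf8 (2.11), Lef1 (2.10), Il2ra (1.90) and Gpr25 (1.81). In Fabp4 the libraries of a group lay far apart, with 61.3 and 31.5 RPKM for the control guide in Scid.adh.2c2 and 0.951 and 0.421 RPKM in ILC2/b6. Ly6c2 and Gbp10 belong to families of close paralogs, which makes the division of their reads uncertain.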

How the results depend on the processing

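With peaks of a score of at least 30 in every list, 1655 sites met the rule, 1248 of them among the 3950, and 0.363% of the 1655 had an ILC2/b6 GATA3 peak, and the nearest genes called numbered 560 in Scid.adh.2c2, 75 of them rising 2-fold or more, and 113 in ILC2/b6, since fewer sites gave fewer genes. With an overlap of at least 50% of the Bcl11b peak, 31.1% of sites had an ILC2/b6 Runx peak. Without a filter on low values, 92 of 2111 genes tested were called in ILC2/b6, against 3.68% of all 16707 genes. The share of all genes called also moved when 1 library was left out. The counts that follow are therefore no result about the genes near sites alone. Leaving out 1 library gave 119 to 274 calls in ILC2/b6 (119 without the second Bcl11b guide library, 142 without the first), and 800 to 1183 in Scid.adh.2c2, where 2-fold rises numbered 178 to 186 and 2-fold falls 84 to 94; the difference between lines gave 597 to 729. Of the gene changes reported, 2 turned direction: Dynlt1f to 0.012 with quantile normalization, and Runx1 to 0.018 without the second control library (-0.12 without the first); the cause was not tested. The counts of 2-fold changes were tried under these settings after the data were seen.

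Same-numbered libraries share only a number: their deviations correlated at 0.037 in Scid.adh.2c2 and 0.106 in ILC2/b6, over 2 pairs each. With a replicate block the calls were 1087 of 1574 in Scid.adh.2c2 (background 57.9%), 317 of 1393 in ILC2/b6 (background 21.5%) and 673 of 1273 between lines (background 44.2%). In Scid.adh.2c2, 184 rises and 89 falls of 2-fold or more were among them. With 2 libraries per group, the spread of each gene rests largely on other genes.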
